A study of Danio rerio with 6 samples.

Results

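The gene atp7a encodes a copper-transporting ATPase, and its RNA level is given here for the brains of 6 female zebrafish. It was covered by 1 of the 38489 targets on the array, each target standing for 1 transcript and summarised from at most 3 probes. The target was found by gene symbol or by its RefSeq name, and its 3 probes are among the 113549 single probes deposited. All fish were females of the AB strain and 12 months old, with 1 brain per array. Embryos of the lead group were exposed to lead acetate at 100 ppb, starting before 2 hours and ending at 72 hours of development, and were then raised in clean water. The control group went through the same steps at 0 ppb. Each group holds 3 brains, and males of the study were not analysed here. Differences are lead brains minus controls in log2 intensity, with n = 3 brains per group. They are given with their standard error from limma, a linear model that draws each target's spread toward a value common to all targets.

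Copper enters cells through the importer Ctr1, encoded by slc31a1, and is passed by small chaperone proteins to the enzymes that need it. ATP7A sits in the trans-Golgi network, where it pumps copper into the secretory pathway for enzymes such as dopamine beta-hydroxylase and lysyl oxidases, and it moves to the cell surface to export copper when copper is high. Loss of ATP7A in humans causes Menkes disease, with copper deficiency of the brain, and loss of zebrafish atp7a in the mutant calamity leaves embryos without melanin pigment. Lead and copper are different metals, and the comparison asks whether lead in early life is followed by different expression in the aged brain.

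The gene was chosen by its target intensities, which differed between these groups, so its own difference is a description with no test. In control brains the atp7a target (NM_001042720, chromosome 14, 19180840 to 19219506 in the Zv7 assembly by the scaffold names of the files) read 6911, 4548 and 5928 in replicates 1, 2 and 3. In lead brains it read 2535, 2274 and 3871. The lowest control lay above the highest lead brain, so the groups did not overlap. Mean intensities were 5796 ± 1187 (SD, n = 3) in controls and 2893 ± 857 (SD, n = 3) in lead brains. On the log2 scale the means were 12.48 ± 0.31 and 11.46 ± 0.41 (SD, n = 3 each), a difference of −1.02 ± 0.25, which is 2.03-fold less signal in lead brains.

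The gap between the groups was small beside their spread. Control replicate 2 and lead replicate 3, the neighbours across the gap, were 0.23 apart on the log2 scale. That is less than the SD within either group, and less than the range within controls (0.60) or within lead brains (0.77). Of all 38489 targets, 132 or 0.343% had a difference as low as that of atp7a or lower. Groups without overlap and lower in lead were found in 3.75% of all targets, the contrast that chose the gene, so nothing is read from it. No target passed adjustment for all targets in limma (0 or 0.0%, with 1696 or 4.41% at an unadjusted p under 0.05). In whole brain, fewer cells that express atp7a and less of its RNA per cell cannot be told apart.

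**Figure D1:**
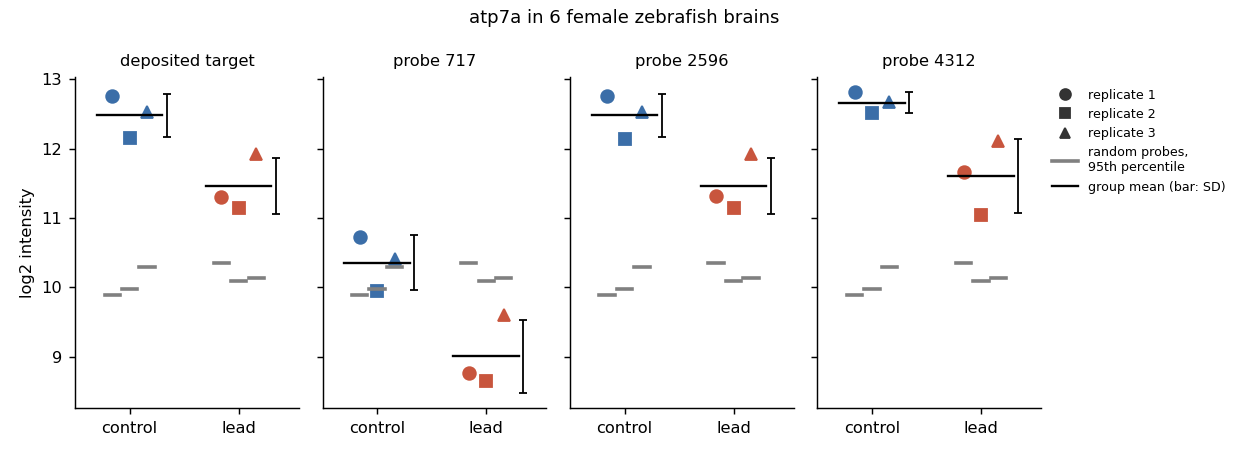
Log2 intensity of the deposited atp7a target and of its 3 single probes (panels) in control and lead brains, with a marker shape for each replicate. Black lines are group means with the SD beside them, and grey dashes give each array's 95th percentile of random control probes. In every panel all 3 lead brains lie below all 3 controls, and probe 717 lies under the grey dashes in every lead brain.

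In each of the 3 probes, as measured, every lead brain lay below every control. They are named here by the number that ends their names, 717, 2596 and 4312. Probe 2596 read 6911, 4531 and 5928 in controls and 2544, 2274 and 3871 in lead brains, a difference of −1.02 ± 0.26. These values are nearly those of the target by which the gene was chosen, so nothing further is read from this probe. Probe 4312 read 7182, 5821 and 6515 in controls and 3244, 2110 and 4408 in lead brains, a difference of −1.06 ± 0.28. Probe 4312 had tighter controls than probe 2596, with a log2 SD of 0.15 against 0.53 in its lead brains. Like probe 2596 it is summarised into the target by which the gene was chosen, so nothing is read from its group difference.

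Probe 717 was dim. It read 1691, 986.6 and 1359 in controls and 434.5, 400.8 and 781.0 in lead brains. Background was taken as the 95th percentile of random control probes, 948.2 to 1312 per array. The dim probe lay above it in 2 of the 3 controls and in 0 of the 3 lead brains. With lead values raised to background and controls as measured, the log2 means differed by 1.12-fold, with controls higher. Control replicate 2 lay under background too, so this is not a strict bound. Measured means were 1345 in controls and 538.8 in lead brains. The target itself was 1.93 to 7.29 times background and above it on all 6 arrays.

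The brains fell in one order in probes 2596 and 4312, the probes above background on all 6 arrays. From high to low it was control replicates 1, 3 and 2, then lead replicates 3, 1 and 2. The target, summarised from its probes and nearly equal to probe 2596, had the same order, and nothing is read from that. Over the 6 arrays the log2 values of probes 2596 and 4312 had a Pearson r of 0.964, which includes the group difference. With group means removed it was 0.864. Probe 717 had the same order, but 4 of its 6 values lay under background and its order there is not read. These points share arrays and labelled RNA, so they describe likeness between probes and not between fish. All 3 probes lay lower in every lead brain than in every control for 68 of the 36632 targets with 3 probes (0.186%), and higher for 165 (0.450%). This is again the contrast that chose the gene, so nothing is read from it. The deposited target value lay within 0.0054 log2 of the median probe on 5 arrays and 0.11 above it in lead replicate 2.

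The authors' deposited table of 94 altered targets lists ATP7A with a signed fold score of −2.029, a log2 ratio of −1.02 and a p of 0.0253. By log2 ratio it is the third lowest of the 28 lower entries in the authors' deposited table. The test behind that table is not stated in it. For all 94 entries the listed p lay within 1% of the p of an ordinary linear model on log2 intensities, without moderation or adjustment, so the listed values are unadjusted p-values.

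Genes of copper handling other than atp7a were compared between the same groups. The 4 lists of the pathway hold 116 genes, of which 65 were measured under a zebrafish symbol. In limma 0 of the 65 passed adjustment over all targets and 0 had an unadjusted p under 0.05, where 0.0% and 4.38% of all 15357 genes with a symbol did. Higher values in lead brains were found for 41 genes and lower values for 24, beside 8376 and 6981 of all genes with a symbol. The median difference was 0.03, beside 0.02 over all genes with a symbol, and the range was −0.40 to 0.41. Groups did not overlap for 4 genes that were higher and 2 that were lower, where 6.65% and 2.92% of all genes with a symbol did so. Of the 65 genes, 52 lay above background on all 6 arrays and 5 on none. All 65 had smaller differences than atp7a. That gene was chosen for its difference, and 0.343% of all targets were as low or lower, so nothing is read from this.

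**Figure D2:**
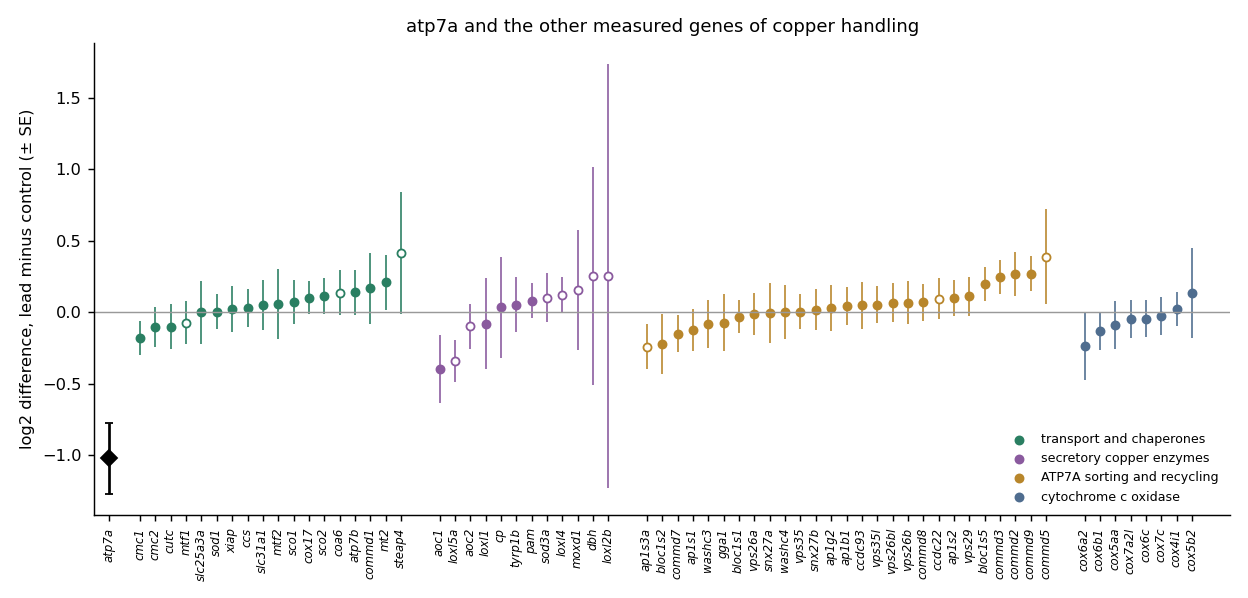
Difference in log2 intensity, lead minus control, with its standard error (vertical axis), for atp7a (black diamond) and the 65 measured genes of 4 copper lists (colours). Open circles mark genes that were not above the random probes on all 6 arrays. All points other than atp7a lie between −0.40 and 0.41.

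The paralog atp7b, which exports copper from liver in mammals, read 2565, 2547 and 3283 in controls and 2821, 3436 and 2957 in lead brains. These groups overlapped, with a difference of 0.14 ± 0.16 (ENSDART00000030246, limma adjusted p = 0.959). The importer slc31a1 read 4025, 3816 and 3174 in controls and 4014, 3108 and 4347 in lead brains, at 0.05 ± 0.18 (limma adjusted p = 0.985). The groups of slc31a1 overlapped too. A further target (AY077715.1) that the files name only by the homologue SLC31A1 was at 0.03 ± 0.18.

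Among chaperones and copper-binding proteins, the cytosolic superoxide dismutase gene sod1 was at 0.0030 ± 0.12 and its copper chaperone ccs at 0.03 ± 0.13. Values of sco2, which serves copper insertion into cytochrome c oxidase, were at 0.11 ± 0.13. The mitochondrial assembly factor cmc1 was at −0.18 ± 0.12, with 5271, 4574 and 5075 in controls and 4491, 4351 and 4302 in lead brains, which do not overlap. The metallothionein gene mt2, whose product binds copper and zinc, read 8643, 13225 and 11238 in controls and 12133, 11282 and 14475 in lead brains. Its groups overlapped, at 0.21 ± 0.19 (limma adjusted p = 0.958). Its regulator mtf1, the metal-responsive transcription factor, was at −0.07 ± 0.15, and the metalloreductase gene steap4 at 0.41 ± 0.43. Leaving out 1 brain at a time moved steap4 to between 0.0090 and 0.73 and mt2 to between 0.043 and 0.35. Of the 18 measured genes in this list 14 were higher and 4 lower, with a median of 0.05.

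Targets of the mitochondrial copper chaperone cox17 differed from each other in size of difference. The authors' deposited table names the target BC081527.1 COX17, with a log2 ratio of 0.75 and a p of 0.0168. It read 2945, 2376 and 3564 in controls and 5039, 5350 and 4384 in lead brains, at 0.75 ± 0.18 (limma adjusted p = 0.958). It was singled out here because that table lists it. Targets that carry the zebrafish symbol cox17 were at 0.14 ± 0.12 (OTTDART00000025669) and 0.10 ± 0.12 (OTTDART00000025670). All of them lie on chromosome 9, in coordinates of different assemblies, so whether they measure the same transcript was not tested.

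Enzymes that receive copper in the secretory pathway, where ATP7A delivers it, were measured for 12 of 25 listed genes. Of these 8 were higher and 4 lower, with a median of 0.07, and 5 lay above background on all 6 arrays. The peptide-amidating enzyme gene pam was at 0.08 ± 0.12 in the target of highest mean among its 5. The other pam targets differed in sign, at 0.06 ± 0.12, 0.10 ± 0.12, −0.08 ± 0.14 and −0.22 ± 0.20. The multicopper ferroxidase gene cp was at 0.03 ± 0.35. The diamine oxidase gene aoc1 was at −0.40 ± 0.24, with 3099, 3147 and 3109 in controls and 1905, 3479 and 2001 in lead brains. Its lead replicate 2 lay above the controls, and without that brain the difference was −0.68. The lysyl oxidase relatives loxl5a (−0.34 ± 0.15) and loxl4 (0.12 ± 0.12) lay under background on every array.

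The gene dbh, for the enzyme that makes noradrenaline, varied widely among brains. It read 4234, 1870 and 1086 in controls and 4369, 788.5 and 4199 in lead brains. It lay above background in 2 brains of each group. Its difference was 0.25 ± 0.76 (limma adjusted p = 0.984), and the standard error was larger than the difference.

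Genes for sorting and recycling of ATP7A between the Golgi, endosomes and the cell surface comprised 27 measured of 44 listed. In limma 0 had an unadjusted p under 0.05, against 4.38% of all genes with a symbol. Of the 27, 17 were higher and 10 lower, and the median was 0.04. COMMD proteins form a complex that returns ATP7A from endosomes. Values of commd9 were at 0.27 ± 0.12, with 3069, 3433 and 3046 in controls and 3883, 4014 and 3613 in lead brains. Values of commd3 were at 0.25 ± 0.12 and of commd2 at 0.27 ± 0.15, and bloc1s5, of the complex that builds lysosome-related organelles, was at 0.20 ± 0.12. In these 4 of the 27 genes all lead brains lay above all controls, against 6.65% of all genes with a symbol. The 4 were named because they had the smallest p of this list in limma, and each had a limma adjusted p of 0.958. Not all COMMD genes were higher. Values of commd7 were at −0.15 ± 0.13, of commd1 at 0.17 ± 0.25, of commd5 at 0.39 ± 0.33 and of commd8 at 0.07 ± 0.13. A target named only by the homologue COMMD2 was at −0.07 ± 0.14. The 2 targets named only by COMMD10 were at −0.40 ± 0.18 and −0.35 ± 0.27. In the first of them all lead brains lay below all controls, against 3.75% of all targets. That target lay above background in 3 controls and 1 lead brain. A target named only by COMMD4 was higher, at 0.22 ± 0.26. These COMMD targets were added after their values were seen. Cytochrome c oxidase subunits, of a mitochondrial enzyme that holds copper, were measured for 8 of 20 genes. Of these 2 were higher and 6 lower, with a median of −0.05. The 8 include cox6b1 (−0.13 ± 0.13), cox6a2 (−0.24 ± 0.24), cox5aa (−0.09 ± 0.17) and cox5b2 (0.13 ± 0.32).

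A further 29 targets carry only the human homologue name of a listed gene. In limma 0 of them passed adjustment and 0 had an unadjusted p under 0.05, against 4.41% of all targets, with 16 higher, 13 lower and a median of 0.0060. They lay between −0.45 and 0.39.

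The neighbourhood of atp7a on chromosome 14 held 17 other targets within 500000 bases in the Zv7 coordinates, and none overlapped the 38667 bases of atp7a. Targets placed in other assemblies were left out, so these 17 may not cover every nearby gene. Of these 13 were higher in lead brains and 4 lower, with a median of 0.19. In limma 0 passed adjustment and 4 had an unadjusted p under 0.05, against 4.41% of all targets. Groups did not overlap for 5 that were higher and 1 that was lower, against 5.74% and 3.75% of all targets. Of these, TC265031, ZV700S00002681 and the lower one, ZV700S00003674, lay under background on every array. ZV700S00002681 and ZV700S00003674 are also among the 4 at an unadjusted p under 0.05 in limma. Several of the 17 targets carry the same gene or homologue name, among them BC078187.1 and ZV700S00003894, which do not overlap between groups.

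The nearest named neighbour among these, fbxl3l, has 2 targets 14716 and 14845 bases away, at −0.47 ± 0.30 and −0.15 ± 0.14. Both lay under background on all arrays, so their differences are not well measured. The other named target, of the mediator subunit gene med19a, was at 0.14 ± 0.15. The target BC078187.1, which the files name by the homologues LOC134492 and NUDCD2, had the highest difference near atp7a, at 0.60 ± 0.16 (limma adjusted p = 0.958). It was singled out after its values were seen. Targets within its span that carry the same homologue names had smaller differences. They were ZV700S00003894 (NUDCD2) at 0.39 ± 0.17 and ZV700S00003206 (LOC134492) at 0.09 ± 0.31, whose groups overlapped. The lowest difference near atp7a was that of ZV700S00003674, at −0.63 ± 0.25, which lay under background on all arrays.

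**Figure D3:**
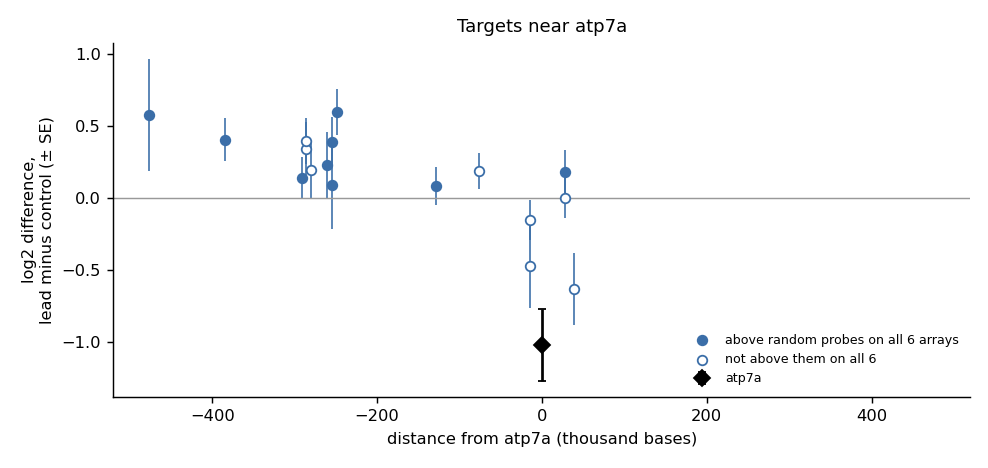
Difference in log2 intensity, lead minus control, with its standard error (vertical axis), by distance from atp7a in kb (horizontal axis). Shown are the 17 targets within 500000 bases of atp7a that have Zv7 coordinates. Filled circles lie above the random probes on all 6 arrays, open circles do not, and the diamond is atp7a. Targets at −0.63 and −0.47 are open, and all filled circles lie above 0.

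Genes most like atp7a were sought among 11841 targets with a symbol that lay above background on all 6 arrays. Likeness was Pearson's r of log2 intensity with the atp7a target over the 6 brains, given as a description. An r above 0.95 was found for 22 targets (0.186%) and an r below −0.95 for 102 (0.861%). The highest was si:ch211-208g1.1 (r = 0.993), which read 2476, 2208 and 2315 in controls and 1763, 1667 and 1989 in lead brains. Next came hlfb (r = 0.989), a bZIP transcription factor gene, which read 7816, 6854 and 7140 in controls and 5297, 4831 and 6101 in lead brains. The other targets were ENSDART00000079368 (r = 0.982), si:ch211-152b13.1 (0.979), si:dkeyp-67e1.4 (0.978) and FHOD3 (3 of 4) (0.977). Their differences were smaller than that of atp7a, from −0.09 for FHOD3 (3 of 4) to −0.73 for si:dkeyp-67e1.4. These targets were chosen by likeness to atp7a, and atp7a by its difference, so nothing is read from their sign or size.

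That r mixes the group difference with variation among brains of a group. With group means removed, 40 of the 11841 targets had an r above 0.95. The highest was gpcpd1 (r = 0.996), for a glycerophosphocholine phosphodiesterase, which read 3290, 2198 and 2983 in controls and 1626, 1488 and 2537 in lead brains. It followed atp7a within both groups, and its groups overlapped, with a difference of −0.60 ± 0.25. Next were LOC557820 (r = 0.990), the tonicity-responsive factor gene nfat5a (0.990), pttg1ipb (0.986), ippk (0.984), for a kinase of inositol phosphates, and cyb561d1 (0.983). Of these, nfat5a was at 0.02 ± 0.14, ippk at 0.16 ± 0.16 and cyb561d1 at 0.22 ± 0.15. All 12 genes have differences with a limma adjusted p over the threshold of 0.05.

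**Figure D4:**
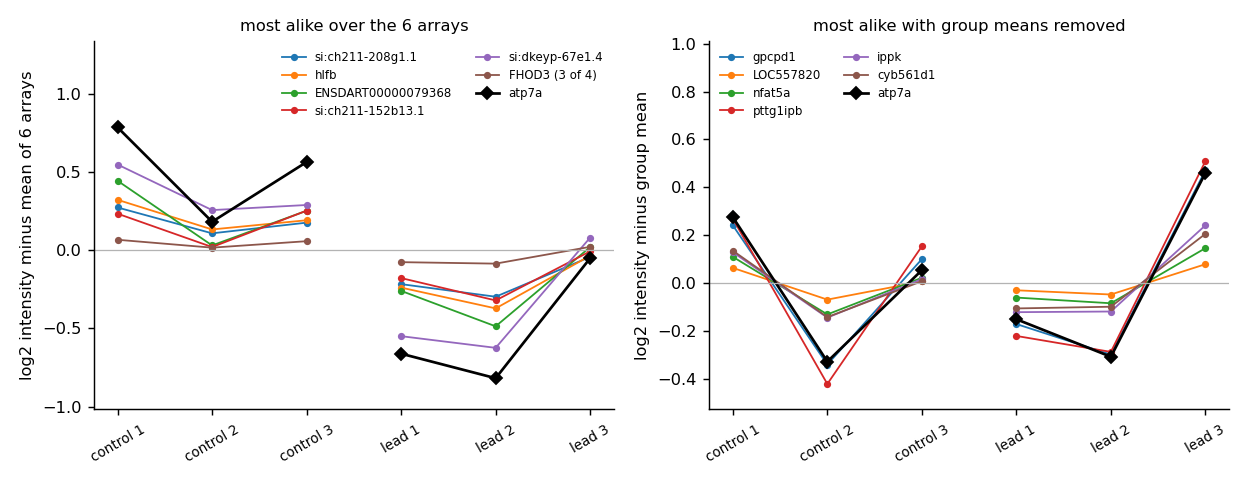
Log2 intensity by array for atp7a (black diamonds) and the 6 targets most like it, after the mean of the 6 arrays (left) or the mean of each group (right) was subtracted. Lines join arrays of a group and have no order in time. On the left all genes lie below 0 in lead replicates 1 and 2, and on the right all lie above 0 in lead replicate 3 and control replicate 1.

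Brain tissue was present on every array, and marker lists of other cells lay lower or higher in lead brains. All 5 measured neuron markers, all 6 of radial glia and all 4 of oligodendrocytes lay above background on all 6 arrays. Sums of the neuron markers ranged from 159409.5 to 166829.9 among controls and from 170432 to 172319 among lead brains. Sums of the red blood cell markers ranged from 107618 to 121242 among controls and from 49748 to 101733 among lead brains. All 12 measured were lower in lead brains, with a median of −0.88, where 6981 of all 15357 genes with a symbol were lower. In limma 9 had an unadjusted p under 0.05 and 0 passed adjustment, where 4.38% and 0.0% of all genes with a symbol did. In this list 7 of the 12 lay above background on all 6 arrays, and hbba2 lay under it on every array. Of the 9 at an unadjusted p under 0.05 in limma, klf1, rhag and tfr1a lay above background in 0 lead brains and nt5c2l1 in 1. By median deviation that list ran from high to low in control replicates 1, 3 and 2, the same order as atp7a. Among lead brains it ran in replicates 1, 3 and 2, and atp7a in replicates 3, 1 and 2.

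Pituitary markers were lower in 8 of 9 genes, with a median of −0.96, where 6981 of all 15357 genes with a symbol were lower. Only 1 of the 9 lay above background on all 6 arrays, so most of these differences involve dim values. Pituitary sums were 92461 in control replicate 1 and 8343 to 18726 on the other 5 arrays. The exception was prl, at 0.48, or −0.29 without lead replicate 3. Without control replicate 1 the atp7a difference was −0.88 ± 0.27. Sums of the vessel markers were 60228 to 71793 among controls and 60497 to 68961 among lead brains, and 6 of 9 were lower. Of these egfl7, an endothelial gene, was at −0.47 ± 0.18 (limma adjusted p = 0.958). It was the only 1 of the 9 lower without overlap, where 2.92% of all genes with a symbol were so. The gene was picked out after its values were seen. Sums of the pigment cell markers were 8917 to 10889.7 among controls and 9743 to 10808 among lead brains, and mitfa, pmela, slc24a5, pnp4a and ltk lay under background on every array. Noradrenergic and dopaminergic markers were lower in 5 of 7, with sums of 18305 to 30115 among controls and 14649.8 to 25842 among lead brains. Ependyma and choroid plexus markers lay the other way, with 2 of 7 lower and a median of 0.18. Lower were clic6, at −0.47 ± 0.44, and kcnj13, at −0.05 ± 0.16. The highest, foxj1a at 0.85 ± 0.44 and cfap52 at 0.95 ± 0.48, were picked out after their values were seen. Their groups overlapped, and each lay above background in 2 of 3 controls. Leaving out 1 brain moved foxj1a to between 0.44 and 1.22 and cfap52 to between 0.51 and 1.36. Microglia markers were lower in 4 of 9, with a median of 0.06. Only 4 of the 9 lay above background on all 6 arrays, and csf1ra, p2ry12 and c1qc lay under it on every array. Among pigment cell markers mlpha, at 0.68 ± 0.27, had an unadjusted limma p of 0.0381 (adjusted p = 0.958), and it lay above background in 1 brain. The part of red blood cells, pituitary, vessels or ependyma in the atp7a difference was not tested. All arrays came from 1 scan, with controls and lead brains on separate sets of positions, so position and group cannot be told apart.

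**Figure D5:**
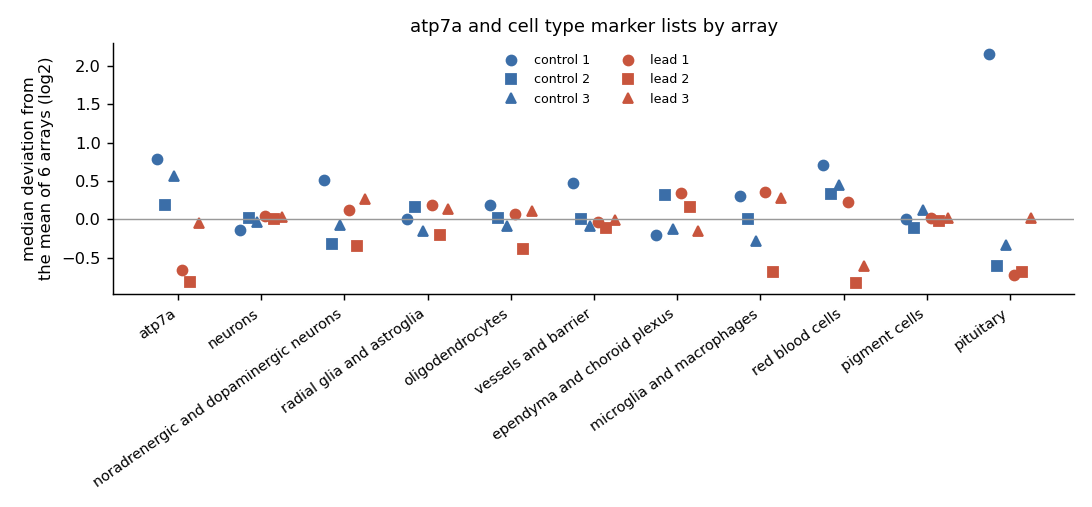
Log2 deviation from the mean of the 6 arrays (vertical axis) for atp7a and, as medians over measured genes, for 10 marker lists (horizontal axis), with 1 point per array. Controls are blue and lead brains red, with a shape for each replicate. Red blood cell markers lie lowest in lead replicates 2 and 3, and pituitary markers stand at 2.15 in control replicate 1.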

How the data were processed

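Per the labels' protocols, cDNA made from brain total RNA was labelled with Cy3 and hybridised to one-colour arrays. The authors deposited RMA intensities per target on a linear scale, per the file headers and the submitters' processing notes. The RMA version and the number of arrays normalized together are not given in the sources used here. The authors also deposited an intensity for each probe and a table of altered targets with a signed fold score, a log2 ratio and a p-value. These 3 columns were used to describe that table only.

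Random control features were removed, and intensities were put on the log2 scale with no filter or added constant. Targets were named through RefSeq accessions (2663 of 3055 matched) and symbols in the files, older symbols being updated through the RefSeq table of GRCz12tu, used for names only. This named 21264 of 38489 targets. Where several targets shared a symbol, the target of highest mean stood for the gene. Lead was compared with control with limma 3.58.1 in R 4.3.3 (two-sided, Benjamini-Hochberg over all targets, threshold 0.05), which was tested on simulated data. Background was the 95th percentile of 27114 random control probes per array. Precision is limited by having 3 arrays per group. The labels do not say whether fish came from separate tanks, so p-values measure the spread between these brains. The gene and lists were chosen with earlier results of these data known.

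Named genes were atp7a, up to 4 members with the smallest p per copper list, 12 core genes of copper handling (atox1 and tyr matched no target by symbol), named targets within 500000 bases, and the 6 most like atp7a by each measure. Python 3.11.15 with pandas 2.3.3 and numpy 2.4.6 gave the tables, and matplotlib 3.10.9 drew the plots. Alternatives were other scaling, other probe summaries, a filter on dim targets, an ordinary linear model, a replicate block and leaving out each brain.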

Additional observations from a re-analysis of the deposited data

How the results depend on the processing

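The atp7a difference of −1.02 was −1.01 after centring on the median, −1.02 after quantile normalization, −1.09 with the random probe median subtracted and −1.05 from the median of its probes. Leaving out each brain gave −1.25 to −0.87. With the replicate number as a block it was −1.02 ± 0.20. Same-numbered brains had correlations of deviations of 0.31, 0.03 and −0.05, and brains of unlike number −0.23 to 0.24. With so few pairs, whether the numbers pair the fish cannot be decided. No target passed adjustment under any alternative run. The count at an unadjusted p under 0.05, 1696, went from 1063 without lead replicate 1 and 1075 without control replicate 3 to 3098 without control replicate 2. Among the 65 copper genes that count, 0, was 4 in the ordinary linear model (cmc1, commd3, commd9 and bloc1s5), 1 with the replicate block (loxl5a) and 0 to 2 when 1 brain was left out, with 0 adjusted each time. Signs of 8 of the 24 named copper genes changed, and leaving out 1 brain moved 17 of the 24 by over 1.5 times. Leaving out each brain gave −0.018 to 0.12 for ccs, −0.25 to 0.041 for cox5aa, −0.17 to 0.48 for cox5b2, −0.30 to 0.30 for cp, −0.21 to 1.06 for dbh, −0.17 to 0.039 for mtf1, −0.050 to 0.19 for slc31a1 and −0.040 to 0.070 for sod1. Quantile normalization put sod1 at −0.0050. Without a change of sign, the ranges were 0.056 to 0.26 for atp7b, −0.68 to −0.24 for aoc1 and −0.40 to −0.037 for cox6a2. Of 34 other named targets, run after the data were seen, 6 changed sign and 22 moved by over 1.5 times. Those of changed sign were AY077715.1 (−0.071 to 0.20), nfat5a (−0.053 to 0.075), loxl2b (−1.07 to 1.68), prl (−0.29 to 0.96), commd1 (−0.055 to 0.41) and ZV700S00006268 (−0.13 to 0.021), the target named by COMMD2. The cause of these changes was not tested. Probes under background, such as probe 717 in lead brains, limit what a difference can show.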

Other observations

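Among the copper enzymes, the lysyl oxidase relative loxl2b was high in 1 brain of each group and near background in the others. It read 12808, 693.8 and 621.6 in control replicates 1, 2 and 3 and 13111, 735.9 and 965.2 in lead replicates 1, 2 and 3. The high values were close to each other, and the other 4 lay under background, so the difference of 0.25 ± 1.48 comes mainly from dim values. The gene was singled out after its values were seen.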
